A study of Homo sapiens with 6 samples.

Results

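FOXO1, FOXO3 and FOXO4 are forkhead transcription factors that act where growth factor signalling is low. Receptors that feed phosphoinositide 3-kinase (PI3K) activate the kinase AKT, and AKT phosphorylates the FOXO factors, which are then bound by 14-3-3 proteins and kept in the cytoplasm. When that signal drops they enter the nucleus and switch on genes of growth arrest, protein breakdown, autophagy, stress defence and insulin signalling. In mammary epithelial cells EGF is one of the ligands that feed this route. The control of FOXO factors lies mostly at the protein level, which RNA values do not show.

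The 10 genes described here were chosen by symbol, with earlier results of these data known: the factors FOXO1, FOXO3 and FOXO4, and the FOXO targets FBXO32, GABARAPL1, SESN3, TXNIP, IRS2, CCNG2 and CITED2. Of these 10 genes, 9 were matched to a row among 57820 gene rows and all 9 passed the filter on low values, a mean linear level of at least 10 (14763 genes tested), and TXNIP was not analysed here. The values that made these genes of interest are those of the comparisons below, so their own values are given as a description, with differences and standard errors. No p-value is given for any of the 9, and where members past a threshold are counted, the count describes the choice and nothing is read from it.

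Messenger RNA was sequenced from hTert-HME1, human breast epithelial cells that telomerase keeps dividing. They were transfected with an siRNA to BRCA2, a DNA repair gene, or with a control siRNA, and the growth medium held EGF or lacked it. There were 6 libraries in 4 groups: BRCA2-2 siRNA at passage 6 lacking EGF (A and B), BRCA2-2 siRNA with EGF at passage 4 (1 library), control-1 siRNA with EGF at passage 6 (A and B) and control-1 siRNA with EGF at passage 4 (1 library). The medium is taken from the labels' media field, which marks the first group as lacking EGF, although the titles and columns of those 2 libraries carry the letters EGF with no sign. All are one line, and control siRNA without EGF was not analysed here, and medium, siRNA and passage therefore differ together in part and cannot be told apart in full. Values are normalised log2 values as deposited, so fold changes are 2 raised to a difference, and the depth per library is unknown. Replicates are labelled biological, with no word on whether cultures were separate, so the p-values reflect only how these libraries differ, which may be technical.

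The targeted gene was read first, as a check of the labels. BRCA2 was at 11.15 and 10.89 without EGF and at 10.88 in the EGF-fed library labelled BRCA2 siRNA, against 11.25 and 11.24 in the passage 6 controls and 10.19 in the passage 4 control. Without EGF the difference to the passage 6 controls was -0.23 and did not pass (adjusted p = 0.23, limma). The value of the EGF-fed library lay 0.69 above that of the passage 4 control, which goes against the label. The siRNA groups are therefore named by label throughout. Directions that rest on either passage 4 library, those between the control passages among them, hold by label only. In the passage 4 pair 18 of 20 listed cycling-cell genes were also above 0 (median 0.44), and their part in the BRCA2 value was not tested. Of 10 listed basal mammary markers 10 passed the filter, and of 10 luminal markers 6 did (KRT8, KRT18, GATA3, FOXA1, ESR1 and MUC1), while KRT19, EPCAM, ELF5 and PROM1 were below it, ELF5 at or below 0 in every library. Passage 6 controls A and B were closer to each other than any other pair: the SD of their differences over tested genes was 0.119, against 0.308 for the 2 libraries without EGF. The passage 4 control differed from the other 5 libraries with an SD of 0.397 to 0.597. The other 10 pairs of libraries had 0.119 to 0.523, so the ranges overlapped. Against passage 6 controls A and B, the EGF-fed library labelled BRCA2 siRNA had 0.290 and 0.321. The passage 4 control had 0.485 and 0.509 against the same controls.

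SESN3 and FOXO1 were higher without EGF than in every library with EGF. SESN3, which encodes a sestrin that restrains the growth kinase complex mTORC1, had log2 values of 11.14 and 11.36 without EGF. It had 10.07 in the EGF-fed library labelled BRCA2 siRNA, 10.13 and 10.03 in the passage 6 controls and 9.99 in the passage 4 control. All 4 libraries with EGF thus lay together, the highest of them 1.01 below the lower library without it. The difference without EGF was 1.17 ± 0.11 (standard error) against the passage 6 controls, a 2.25-fold higher level, and 1.18 ± 0.13 against the EGF-fed library labelled BRCA2 siRNA. The passage 6 and passage 4 controls differed by 0.09 ± 0.13, less than its standard error.

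FOXO1 was at 8.84 and 9.34 without EGF and at 7.87 in the EGF-fed library labelled BRCA2 siRNA, against 7.72 and 7.60 in the passage 6 controls and 8.25 in the passage 4 control. The lower library without EGF stood 0.59 above the passage 4 control, the highest with EGF. FOXO1 was 2.70-fold higher without EGF than in the passage 6 controls (1.43 ± 0.18) and 2.33-fold higher than in the EGF-fed library labelled BRCA2 siRNA (1.22 ± 0.23). The passage 6 controls were below the passage 4 control by a smaller step, with a difference of -0.59 ± 0.23.

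The other factors did not separate the media. FOXO3, a factor that activates atrophy and autophagy genes, was at 12.52 and 12.83 without EGF and 12.23 in the EGF-fed library labelled BRCA2 siRNA, against 12.09 in both passage 6 controls and 12.55 in the passage 4 control. The passage 4 control lay between the 2 libraries without EGF. FOXO4 was at 6.99 and 6.78 without EGF and 7.12 in the EGF-fed library labelled BRCA2 siRNA, against 6.39 and 6.33 in the passage 6 controls and 6.92 in the passage 4 control. Here the passage 6 controls were the low pair and the other 4 libraries overlapped. Without EGF the difference to the passage 6 controls was 0.58 ± 0.12 for FOXO3 and 0.52 ± 0.12 for FOXO4, while between the passage 6 and passage 4 controls it was -0.47 ± 0.15 for FOXO3 and -0.56 ± 0.15 for FOXO4.

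FOXO3 shares sequence with FOXO3B, a pseudogene copy whose reads the counting could have split. FOXO3B was at 7.93 and 8.28 without EGF and 7.77 in the EGF-fed library labelled BRCA2 siRNA, against 7.66 and 7.61 in the passage 6 controls and 8.04 in the passage 4 control. It stayed 4.43 to 4.58 below FOXO3 in all 6 libraries, so the values of the 2 rows moved in step. The level of FOXO3B was thus small beside that of FOXO3. A split of reads between the rows could weigh more on FOXO3B than on FOXO3, and was not tested. FOXO6 and FOXO1B were below the filter on low values.

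**Figure D1:**
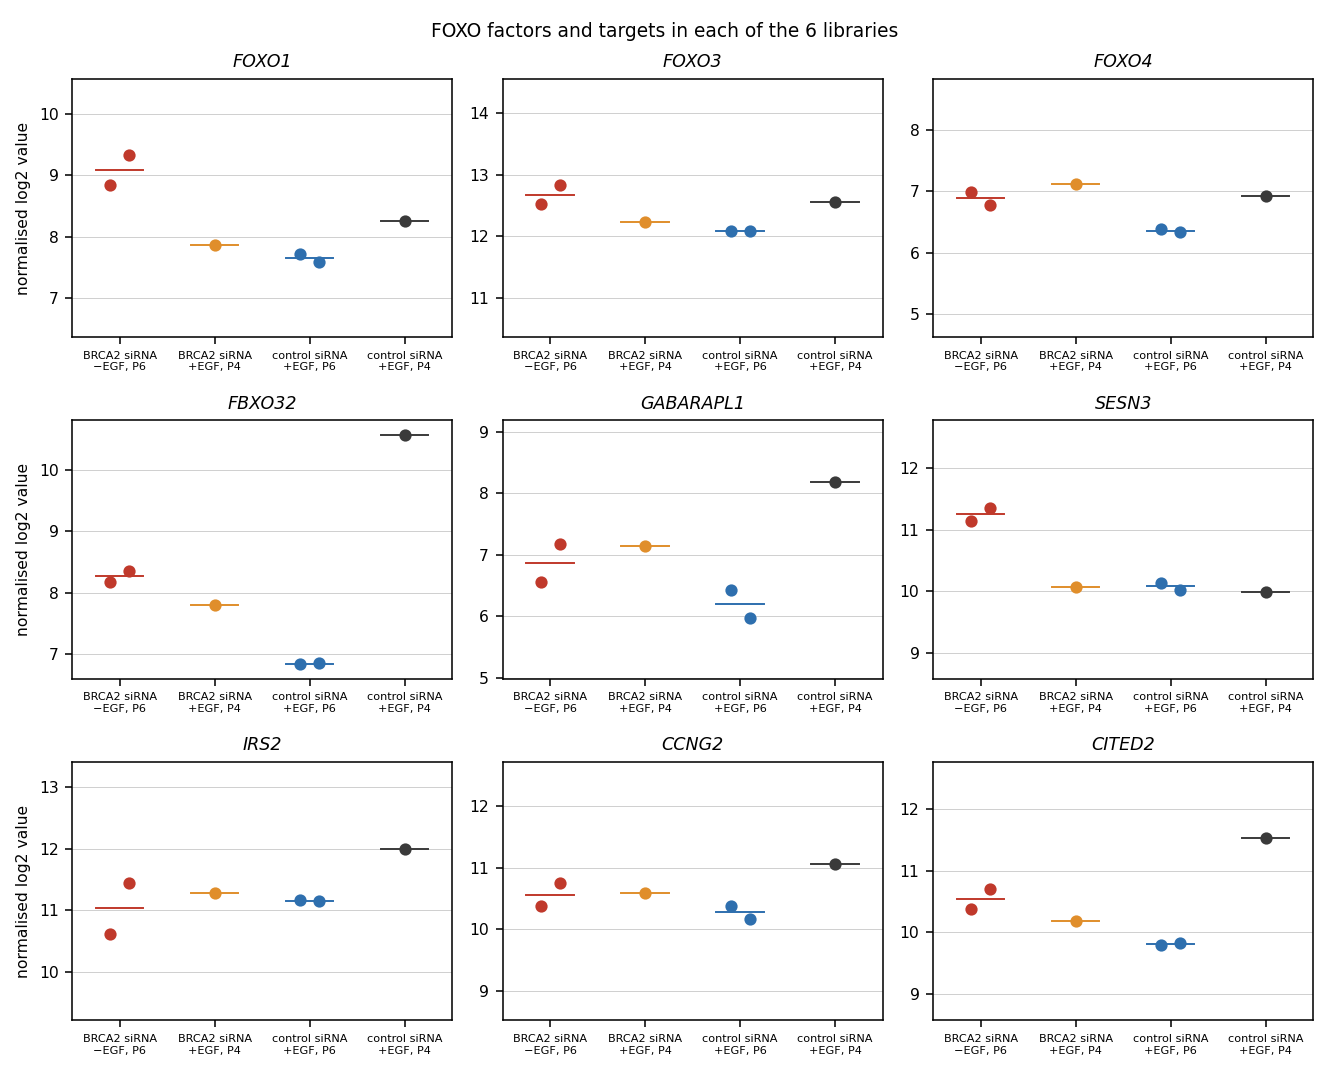
Normalised log2 value (y axis, each panel spanning the same number of log2 units) of the 9 measured members in each library, by group (x axis; P4 and P6 are passage 4 and passage 6). Points are libraries and bars are group means: SESN3 and FOXO1 are highest in the 2 libraries without EGF, whereas FBXO32, CITED2, GABARAPL1, CCNG2 and IRS2 are highest in the passage 4 control.

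The remaining 5 measured targets were highest in the passage 4 control. FBXO32, the muscle-atrophy ubiquitin ligase subunit atrogin-1, had the widest range of the 9 genes, 3.73 on the log2 scale. It was at 8.17 and 8.36 without EGF and 7.80 in the EGF-fed library labelled BRCA2 siRNA, against 6.83 and 6.85 in the passage 6 controls and 10.57 in the passage 4 control. Within EGF medium and, by label, control siRNA, the passage 6 libraries were thus 13.2-fold below the lone passage 4 library (-3.72 ± 0.12). Without EGF it was 2.68-fold above the passage 6 controls (1.42 ± 0.10), and still 2.21 below the passage 4 control even in its higher library.

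GABARAPL1, an ATG8-family protein of autophagosome membranes, was at 6.56 and 7.18 without EGF and 7.14 in the EGF-fed library labelled BRCA2 siRNA, against 6.44 and 5.98 in the passage 6 controls and 8.19 in the passage 4 control. The libraries without EGF lay on both sides of the EGF-fed library labelled BRCA2 siRNA. Its difference was 0.66 ± 0.27 without EGF against the passage 6 controls and -1.98 ± 0.33 between the passage 6 and passage 4 controls.

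CITED2, a CBP/p300-binding protein that limits hypoxia-inducible factor activity, was at 10.38 and 10.71 without EGF and 10.18 in the EGF-fed library labelled BRCA2 siRNA, against 9.80 and 9.82 in the passage 6 controls and 11.53 in the passage 4 control. The order of the groups was thus the one FBXO32 had. CITED2 was 1.66-fold higher without EGF than in the passage 6 controls (0.73 ± 0.13), and the passage 6 controls were 3.30-fold below the passage 4 control (-1.72 ± 0.16).

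CCNG2, an unusual cyclin linked to cell cycle exit, was at 10.37 and 10.75 without EGF and 10.60 in the EGF-fed library labelled BRCA2 siRNA, against 10.37 and 10.17 in the passage 6 controls and 11.06 in the passage 4 control. IRS2, an adapter of the insulin and IGF receptors whose transcription FOXO factors drive, was at 10.62 and 11.44 without EGF and 11.29 in the EGF-fed library labelled BRCA2 siRNA, against 11.16 and 11.15 in the passage 6 controls and 12.00 in the passage 4 control. The 2 libraries without EGF lay on both sides of the passage 6 controls for IRS2, and for CCNG2 the lower of them met control A. Without EGF the differences to the passage 6 controls were 0.29 ± 0.15 for CCNG2 and -0.13 ± 0.28 for IRS2. In the passage 6 controls against the passage 4 control they were -0.79 ± 0.19 for CCNG2 and -0.84 ± 0.34 for IRS2.

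To separate the patterns, a gap was taken for each gene. The medium gap is the distance between the range of the 2 libraries without EGF and that of the 4 with EGF, and the passage 4 gap is the distance of the passage 4 control to the nearest of the other 5 libraries where it is the highest or lowest. A gene went with the larger gap if that was at least 0.25. By this rule 2 members, SESN3 and FOXO1, went with the medium, both higher without EGF, where 9.78% of all tested genes did so (5.32% of all higher without EGF, 4.46% lower). With the passage 4 control went 5 members, FBXO32 (gap 2.21), GABARAPL1 (1.01), CITED2 (0.82), IRS2 (0.56) and CCNG2 (0.31), all highest there, where 20.5% of tested genes did so (12.6% highest, 7.94% lowest). CCNG2 was the member nearest to the minimum. FOXO3 and FOXO4 went with neither, since both their gaps were 0. With a minimum of 0.5, CCNG2 went with neither as well. With the median of tested genes subtracted from each library and the minimum of 0.25 kept, 4 members went with the passage 4 control and 2 with the medium. Since the genes were chosen with these values known, nothing is read from the counts.

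The EGF-fed library labelled BRCA2 siRNA was set against the control of its own passage, 1 library against 1, both with EGF, so the differences have no replicate check. FBXO32 was lower in the library labelled BRCA2 siRNA, with a difference of -2.76, as were CITED2 (-1.35), GABARAPL1 (-1.05), IRS2 (-0.71), CCNG2 (-0.47), FOXO1 (-0.38) and FOXO3 (-0.32). SESN3 (0.08) and FOXO4 (0.20) were slightly above 0. A difference of at least 1 in either direction was reached by 3 of the 9 members and by 2.21% of all tested genes, with those 3 members lower, as 1.04% of tested genes were, and 0 members higher, as 1.17% were. The same passage 4 control stands in the comparison of passages, and the passage 6 controls stand in both that comparison and the one without EGF, so these differences are not independent of each other.

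**Figure D2:**
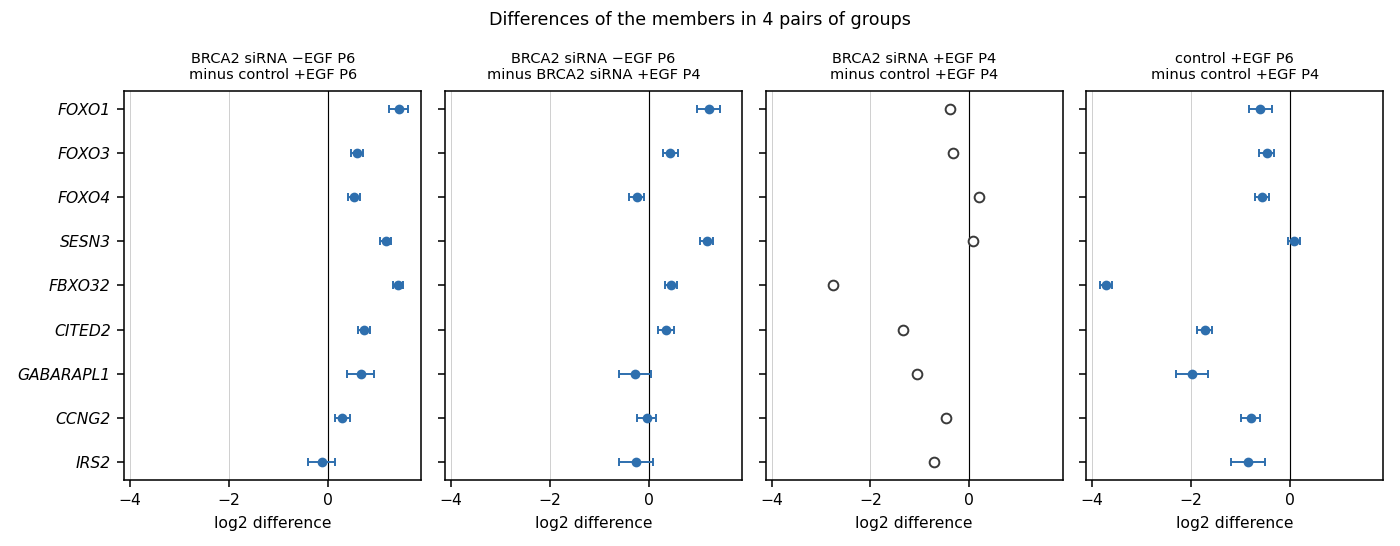
Log2 difference (x axis) of each member (y axis) in 4 pairs of groups, the first-named group minus the second. Filled points carry the standard error of the limma fit, and open points are 1 library against 1 with no error: SESN3 and FOXO1 are above 0 in both comparisons of cells without EGF, and FBXO32 lies at -3.72 between the control passages.

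Over all 14763 genes, limma called 950 genes without EGF against the passage 6 controls (525 higher, 425 lower) at a Benjamini-Hochberg adjusted p below 0.05. Of the 9 members 4 were among them, all higher (FBXO32, SESN3, FOXO1 and CITED2), against a background of 6.44% of tested genes called, 3.56% higher and 2.88% lower. Since this contrast was known when the members were chosen, as were the other 2, neither these counts nor the medians are a test of the members. The median difference of the 9 members was 0.66, against -0.02 over all tested genes. Between the passage 6 and passage 4 controls 2963 genes were called (1138 higher, 1825 lower; 1488 and 1339 with the median of each library subtracted), and of the members 4 were called, all lower (FBXO32, GABARAPL1, CITED2 and CCNG2), against 20.1% of tested genes called, 7.71% higher and 12.4% lower. Here the member median was -0.79, against -0.03 over all. Against the EGF-fed library labelled BRCA2 siRNA, the libraries without EGF had 2406 calls (1094 higher, 1312 lower; 1326 and 994 with medians subtracted), with SESN3 and FOXO1 called higher, where the background was 16.3% called, 7.41% higher and 8.89% lower. The spread behind these calls comes from only 2 pairs of libraries, the close passage 6 controls and the pair without EGF. With those controls averaged into 1 library, or without control A or control B, limma called 0 members in each of the 3 comparisons. With controls of both passages as 1 group, SESN3 alone was called (1.20, against 1.23 for FOXO1, 0.18 for FBXO32 and 0.16 for CITED2).

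Promoter sequence was set beside these patterns for the members that the RefSeq table of promoter windows (build GRCh38.p14, 250 bases before to 50 after each start) covers. Windows of all starts were searched on both strands for GTAAACA and ATAAACA, forms of the FOXO binding element, and for CAAAACA, the core of the insulin response element. None of the 3 overlapped another in a member window. Of 35116 windows, 3.42% held GTAAACA, 4.24% ATAAACA, 4.92% CAAAACA and 11.8% any of them. The windows of FOXO1 (chr13:40666592-40666891, minus strand) and SESN3 (chr11:95232426-95232725, minus strand), the genes that went with the medium, held no match and are shown whole, and a match is a description of letters and not a site in use.
FOXO1: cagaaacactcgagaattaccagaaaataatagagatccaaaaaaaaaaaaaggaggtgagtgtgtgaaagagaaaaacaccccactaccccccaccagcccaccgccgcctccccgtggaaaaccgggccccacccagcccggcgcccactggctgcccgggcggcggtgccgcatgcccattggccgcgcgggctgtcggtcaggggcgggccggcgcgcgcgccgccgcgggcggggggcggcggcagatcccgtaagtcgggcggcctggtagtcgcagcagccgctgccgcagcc
SESN3: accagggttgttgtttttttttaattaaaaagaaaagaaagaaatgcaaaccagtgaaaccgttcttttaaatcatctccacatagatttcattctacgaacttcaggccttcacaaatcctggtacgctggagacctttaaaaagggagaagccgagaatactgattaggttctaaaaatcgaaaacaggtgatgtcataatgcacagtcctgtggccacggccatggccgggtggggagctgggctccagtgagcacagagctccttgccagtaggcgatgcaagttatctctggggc

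A match lay in 1 window each of IRS2 and GABARAPL1, which were highest in the passage 4 control, and of FOXO3 and FOXO4, which followed neither pattern. The stretches around them are shown 5′ to 3′ in the direction of the gene, with the matched letters in capitals. The IRS2 match (chr13:109786590-109786650, minus strand) is CAAAACA on the opposite strand, with its first base 40 bases before the start. That of GABARAPL1 (chr12:10212690-10212750, plus strand) is also CAAAACA on the opposite strand, 160 bases before the start. FOXO3 (chr6:108560667-108560727, plus strand) has ATAAACA 234 bases before 1 of its 4 starts, and FOXO4 (chrX:71095847-71095900, plus strand) has GTAAACA 23 bases after its start. TXNIP, for which no value is given, has GTAAACA 124 bases before 1 of its 2 starts. The windows of CCNG2 and CITED2 held none.
IRS2: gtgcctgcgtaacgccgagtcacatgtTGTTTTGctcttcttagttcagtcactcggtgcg
GABARAPL1: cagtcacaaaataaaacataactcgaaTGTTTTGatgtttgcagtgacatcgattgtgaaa
FOXO3: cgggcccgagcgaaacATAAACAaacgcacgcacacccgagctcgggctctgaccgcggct
FOXO4: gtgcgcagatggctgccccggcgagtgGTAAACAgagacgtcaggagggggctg

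Other genes described as direct FOXO targets gave a list of 49, of which 40 passed the filter. This list and the lists below were also chosen with earlier results of these data known. Their counts and medians, set beside those of all tested genes, are therefore a description and no test of the lists. Without EGF, against the passage 6 controls, 3 rose and 0 fell (limma, adjusted over all genes), where 3.56% of all tested genes rose and 2.88% fell. TNFSF10, the death ligand TRAIL, was at 8.08 and 7.48 without EGF and 5.51 in the EGF-fed library labelled BRCA2 siRNA, against 5.40 and 5.45 in the passage 6 controls and 5.23 in the passage 4 control. It rose 5.13-fold without EGF against the passage 6 controls (2.36 ± 0.22, adjusted p = 0.0152, limma) and 4.82-fold against the EGF-fed library labelled BRCA2 siRNA (2.27 ± 0.27, adjusted p = 0.0212, limma). All libraries with EGF lay together for TNFSF10, the pattern that SESN3 had. FOXN3, another forkhead gene, rose by 0.89 ± 0.15 (adjusted p = 0.0423, limma) and PIK3IP1, an inhibitor of PI3K, by 0.73 ± 0.11 (adjusted p = 0.0326, limma). Relative to its mean over all libraries, PIK3IP1 was at 0.24 and 0.32 without EGF and at -0.45 in both passage 6 controls. It was at 0.16 in the EGF-fed library labelled BRCA2 siRNA and 0.18 in the passage 4 control. For PIK3IP1 the passage 6 controls were thus the low pair, and the other libraries with EGF lay near those without it. The list median was 0.19, with 26 genes above 0 and 14 below, against a median of -0.02 over all genes. Among the 14 were BNIP3, CDKN1A and DEPP1. Relative to its mean over all libraries, BNIP3 was at -0.43 and -0.77 without EGF, against 0.15 and 0.07 in the passage 6 controls. CDKN1A was at -0.55 and -0.27, against -0.08 and -0.05. CDKN1B and SOD2, described next, were added after their values were seen. CDKN1B, the cell cycle inhibitor p27 and a classic FOXO target, was at 10.51 and 10.86 without EGF and 9.99 in the EGF-fed library labelled BRCA2 siRNA, against 10.12 in both passage 6 controls and 10.42 in the passage 4 control, and did not pass (0.57 ± 0.13, adjusted p = 0.0702, limma). SOD2, the mitochondrial superoxide dismutase, had 12.73 and 14.17 without EGF and 14.20 in the EGF-fed library labelled BRCA2 siRNA, against 12.27 and 12.18 in the passage 6 controls and 13.43 in the passage 4 control. The SD of its 2 libraries without EGF was 1.02, and the difference of 1.23 ± 0.48 did not pass (adjusted p = 0.162, limma). With the passage 6 controls averaged, or without control A or B, limma called 0 of the 40 genes (6 higher and 3 lower at an unadjusted p below 0.05 with them averaged), and with controls of both passages as 1 group TNFSF10 alone passed.

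Across the control passages, passage 6 minus passage 4, 12.4% of all tested genes fell and 7.71% rose. The same list had 13 genes that fell and 0 that rose, with a median of -0.57 against -0.03 over all genes. The largest falls were those of MXI1, a MYC antagonist (-1.56 ± 0.17, adjusted p = 0.0231, limma), CBLB, a ubiquitin ligase of receptor signalling (-1.50 ± 0.30, adjusted p = 0.0367, limma), and FOXN3 (-1.43 ± 0.18, adjusted p = 0.0235, limma). FOXN3 was at 9.44 and 9.84 without EGF and 9.13 in the EGF-fed library labelled BRCA2 siRNA, against 8.73 and 8.77 in the passage 6 controls and 10.18 in the passage 4 control. FOXN3 thus had the order of groups of FBXO32 and CITED2. CDKN1A, the cell cycle inhibitor p21 (-0.73), and PINK1, a kinase of mitochondrial quality control (-0.65), also fell. With the passage 6 controls averaged, or without control A or B, limma called 0 of the 40 genes (15 lower and 0 higher at an unadjusted p below 0.05 with them averaged). Against the EGF-fed library labelled BRCA2 siRNA, the libraries without EGF had 2 list genes that rose and 6 that fell. Of all tested genes, 7.41% rose and 8.89% fell there. DEPP1, a FOXO-induced regulator of autophagy, fell by 2.81 ± 0.17 (adjusted p = 0.012, limma). It was at 5.66 and 5.56 without EGF and 8.42 in the EGF-fed library labelled BRCA2 siRNA, against 6.38 and 6.11 in the passage 6 controls and 6.92 in the passage 4 control. BNIP3, a mitophagy receptor, fell by 1.28 in the same comparison. DEPP1 and TNFSF10 remained called there with the passage 6 controls averaged.

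**Figure D3:**
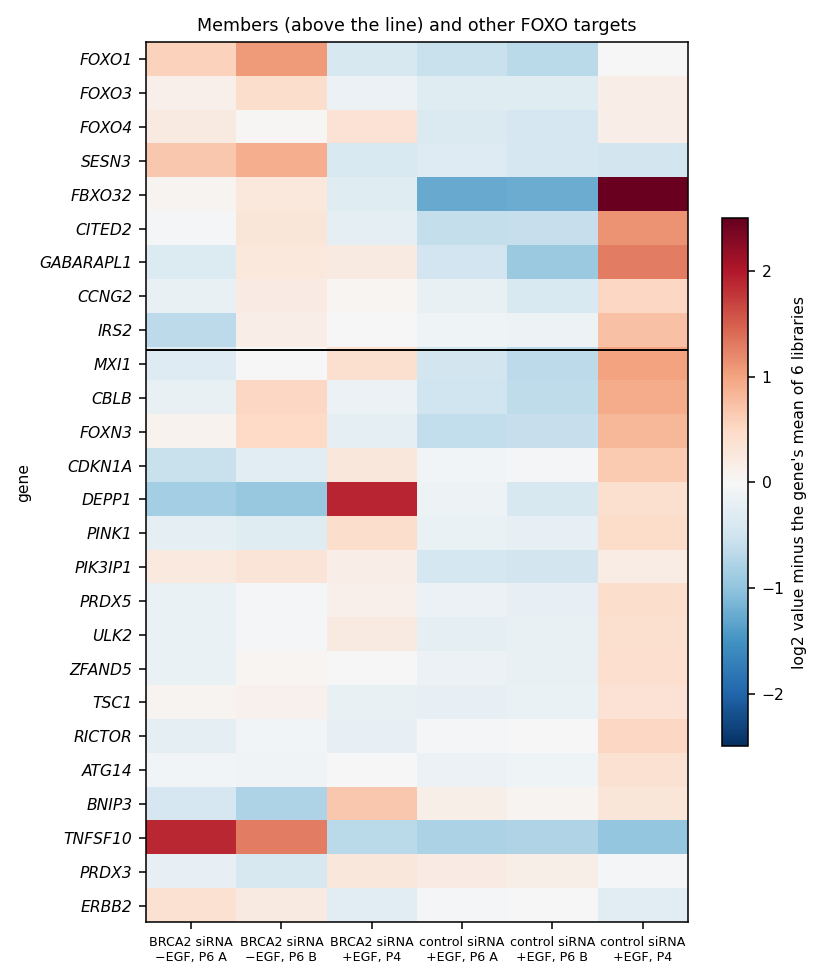
Log2 value minus the gene's mean over the 6 libraries (colour) for the 9 measured members, above the line, and for the 17 other FOXO targets past the limma threshold in any comparison with a mean of at least 50, below it. Columns are libraries (P4 and P6 are passage 4 and passage 6): TNFSF10 shares the block of SESN3 and FOXO1 without EGF, and MXI1, CBLB and FOXN3 share the high passage 4 control of FBXO32.

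Some genes stand in more than 1 list, among them RICTOR, SKP2, SESN1, ARRDC4 and CREBBP, so the counts of different lists are not independent. For the lists from here on, the shares of all tested genes called are as follows. Without EGF against the passage 6 controls, 3.56% rose and 2.88% fell. Between the passage 6 and passage 4 controls, 7.71% rose and 12.4% fell. Without EGF against the EGF-fed library labelled BRCA2 siRNA, 7.41% rose and 8.89% fell. Upstream of the FOXO factors, the PI3K and AKT list had 20 of 21 genes tested. Relative to the passage 6 controls, without EGF only INPPL1, the lipid phosphatase SHIP2, rose (0.57, adjusted p = 0.0347, limma) and 0 fell, and the list median was -0.05. Between the passage 6 and passage 4 controls 1 rose, the regulatory subunit PIK3R3 (0.94), and 5 fell, among them the regulatory subunit PIK3R1 (-0.60) and RICTOR, a subunit of the kinase complex mTORC2 (-0.53). PIK3R1 was at 13.03 and 13.32 without EGF and 12.85 in the EGF-fed library labelled BRCA2 siRNA, against 12.80 and 12.83 in the passage 6 controls and 13.42 in the passage 4 control. The passage 4 control was thus the highest library for PIK3R1, close to the higher of those without EGF. Against the EGF-fed library labelled BRCA2 siRNA, cells without EGF had 1 that rose (INPPL1) and 2 that fell (AKT1 and MAPKAP1).

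Of 9 tested insulin and IGF receptors and adapters, limma called 0 without EGF against the passage 6 controls. At an unadjusted p below 0.05 (limma), 3 were higher and 0 lower, where 4654 of all 14763 tested genes passed. All 9 were above 0 with a median of 0.29, IGF2R (0.58, adjusted p = 0.122, limma) and GRB10 (0.45, adjusted p = 0.438, limma) having the largest differences. For passage 6 against passage 4 controls 2 fell, the adapters GAB2 (-1.39) and SHC1 (-0.50), with a median of -0.42, and IGF1R rose without EGF against the EGF-fed library labelled BRCA2 siRNA (0.51). Of 23 proteins that bind, modify or degrade FOXO factors, limma called 0 without EGF against the passage 6 controls. At an unadjusted p below 0.05 (limma), 0 were higher and 7 lower, beside the same 4654 of 14763 tested genes. The acetyltransferase gene CREBBP (0.38, adjusted p = 0.209, limma) and YWHAE (-0.35, adjusted p = 0.054, limma) had the largest differences. Between the passage 6 and passage 4 controls SKP2, a ubiquitin ligase subunit that targets FOXO1, rose by 1.25 (adjusted p = 0.0357, limma), and SIRT2 (-0.61) and STK3 (-0.60) fell. Against the EGF-fed library labelled BRCA2 siRNA, 4 fell without EGF, the 14-3-3 genes YWHAE (-0.58), YWHAH (-0.41) and YWHAB (-0.37) and the methyltransferase gene SETD7 (-0.53). The averaged passage 6 controls left none of the calls in these 3 upstream lists, in any comparison.

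Of 22 listed paralogs 15 were tested, and without EGF against the passage 6 controls limma called 0, with a median of 0.02. At an unadjusted p below 0.05 (limma), 1 was higher and 2 lower, where 4654 of all 14763 tested genes passed. SESN1 was at 8.57 and 8.50 without EGF and 8.48 in the EGF-fed library labelled BRCA2 siRNA, against 8.68 and 8.61 in the passage 6 controls and 8.59 in the passage 4 control, so the libraries with and without EGF overlapped. The TXNIP relative ARRDC4 was at 9.59 and 10.12 without EGF and 9.06 in the EGF-fed library labelled BRCA2 siRNA, against 9.16 in both passage 6 controls and 9.65 in the passage 4 control (0.70, adjusted p = 0.0884, limma). CITED4 had -0.60 in the same comparison (adjusted p = 0.0522, limma). With passage 6 controls set against passage 4, 6 paralogs fell and 0 rose, with a median of -0.56, among them the cyclin CCNI (-1.07), the F-box gene FBXO25 (-1.07) and CITED4 (-0.80).

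Core autophagy genes, the process that GABARAPL1 serves, were all tested (30 of 30). Relative to the passage 6 controls, without EGF 1 fell, the protease ATG4A (-0.50, adjusted p = 0.0488, limma), and 0 rose. In the passage 6 controls, against passage 4, 10 fell and 0 rose, with a median of -0.31: the cargo receptor SQSTM1 (-1.68), the phosphoinositide-binding WIPI1 (-1.64) and the receptor OPTN (-1.26) fell the most. SQSTM1 was at 10.99 and 11.27 without EGF and 11.24 in the EGF-fed library labelled BRCA2 siRNA, against 10.88 and 10.90 in the passage 6 controls and 12.57 in the passage 4 control. SQSTM1 was thus set apart in the passage 4 control, as GABARAPL1 was. No autophagy, paralog or cycling-cell call held with the passage 6 controls averaged.

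Cycling-cell genes ran the other way. Of 20 tested, 8 rose and 0 fell in the passage 6 controls against the passage 4 control, with a median of 0.61, among them E2F1 (1.43), MCM5 (1.28), SKP2 (1.25) and the proliferation marker MKI67 (1.06). Without EGF against the passage 6 controls 1 fell, the G1 cyclin CCND1, and 0 rose, with a median of -0.26. CCND1, which FOXO factors repress, was at 11.17 and 10.44 without EGF and 12.29 in the EGF-fed library labelled BRCA2 siRNA, against 12.36 and 12.39 in the passage 6 controls and 11.75 in the passage 4 control (-1.57 ± 0.25, adjusted p = 0.0379, limma). Cycling-cell genes were thus low in the passage 4 library that had the high FBXO32, CITED2 and GABARAPL1, and their part in those values was not tested.

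**Figure D4:**
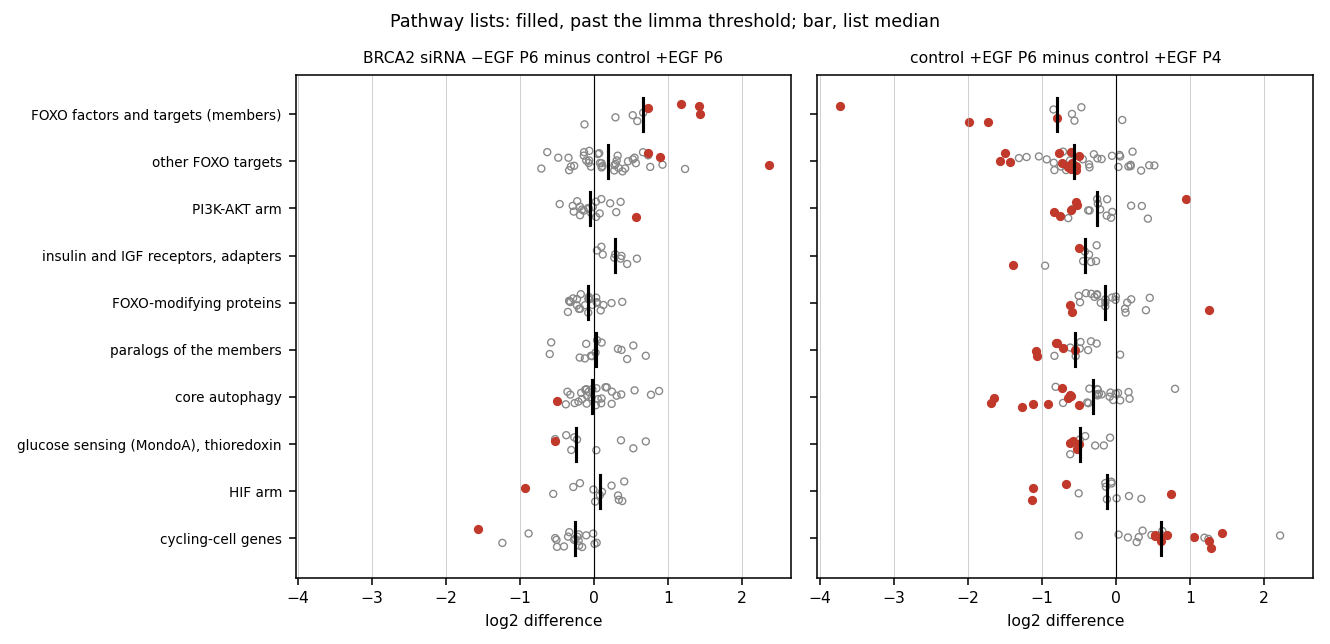
Log2 difference (x axis) of each tested gene in 10 lists (y axis), for cells without EGF minus the passage 6 controls (left) and for the passage 6 minus the passage 4 controls (right); P4 and P6 are passage 4 and passage 6. Filled points passed the limma threshold and bars are list medians, 0.66 and -0.79 for the members and -0.26 and 0.61 for cycling-cell genes.

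Markers of other cell types were read beside these results. The summed linear level of 10 fibroblast markers was 6918 to 7100 without EGF and 4354 in the EGF-fed library labelled BRCA2 siRNA, against 2229 to 2590 in the passage 6 controls and 2435 in the passage 4 control. Of these, 8 were tested and 6 rose without EGF against the passage 6 controls, among them COL3A1 (1.75) and COL1A1 (1.69), which stayed called with those controls averaged, while the fibroblast genes COL1A2 and PDGFRA were below the filter. Basal markers summed to 809682 to 846021 without EGF and 525115 in the EGF-fed library labelled BRCA2 siRNA, against 561969 to 572224 in the passage 6 controls and 595627 in the passage 4 control, and luminal markers to 3117 to 3351 and 3810, against 4141 to 4281 and 4687. Of the basal markers 5 rose without EGF against the passage 6 controls, KRT17 the most (1.52), and of 6 tested luminal markers MUC1 rose (0.91) and KRT18 fell (-0.85). Of 8 matched blood and endothelial markers, 1 passed the filter and CD3E and CDH5 were at or below 0 in every library. Fibroblast and basal sums were thus highest without EGF, as SESN3, FOXO1 and TNFSF10 were, and their part in those results was not tested. Fewer cells of a type and less RNA per cell cannot be told apart in such bulk samples.

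For each member the tested gene with the most similar values was found among 11818 genes with a mean linear level of at least 50, as the smallest root mean square distance between log2 values centred over the 6 libraries. For SESN3 it was HMCN1, at a distance of 0.10, with 8.13 and 8.39 without EGF and 7.07 in the EGF-fed library labelled BRCA2 siRNA, against 6.84 and 6.96 in the passage 6 controls and 6.94 in the passage 4 control. For FOXO1 it was PPFIBP2 (0.09), for FOXO3 ENAH (0.03) and for FOXO4 DOK4 (0.08). For FBXO32 it was DIRC3, the farthest of these neighbours at 0.35, and for GABARAPL1 KLHL24 (0.17). For CITED2 it was MTSS2 (0.09), for IRS2 PTP4A1 (0.05) and for CCNG2 KIAA2026 (0.04). The points of these distances are 6 libraries that share groups, and nothing on shared function is read from them.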

How the data were processed

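Polyadenylated RNA of 6 hTert-HME1 libraries was sequenced with a ScriptSeq kit, per the labels' protocols. The submitters' processing notes name TopHat2 2.0.11, hg19 and DESeq2 (no version). How reads were counted and values transformed is not given in the sources used here. Log2 values are used as the authors deposited them, for 57820 Ensembl gene rows, of which 25986 were 0 in all libraries and 0 were 0 in some libraries only. They ran from -1.98 to 19.93. If the transformation shrinks low values, differences of low genes are understated. Read numbers could not be recovered from such values, so depth and the precision it gives are unknown.

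Groups follow the siRNA, media and passage fields of the labels. A single fit covered all 6 libraries with 1 level per group and 2 residual degrees of freedom, by lmFit and eBayes (trend and robust prior, two-sided) of limma 3.58.1, run in R 4.3.3. Tested were 14763 genes whose linear values (2 to the power of the log2 value) averaged at least 10, and a Benjamini-Hochberg adjusted p below 0.05 was the threshold. A group of 1 library takes its spread from the others. The design allowed for several units, and its branch for log2 values applied. The procedure was tested on simulated data in which all libraries shared 1 spread per gene. That test did not cover replicate pairs of unequal spread, as the passage 6 pairs are here.

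The members, lists and tests were chosen with earlier results of these data known. Named genes were the members, BRCA2, up to 5 called genes per list and comparison with a mean linear value of at least 50, by largest difference, otherwise the 2 largest differences without EGF, and each member's nearest gene. CDKN1B, SOD2 and SESN1 were added after their values were seen. A few genes that the rule names are not reported here. Of 244 list entries in 14 lists, 1 was not matched and 2 were matched by another name. Replicate letters did not pair the libraries. Alternatives changed the filter, scale, centring, prior, controls, replicate block and libraries left out.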

Additional observations from a re-analysis of the deposited data

How the results depend on the processing

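The direction of 27 member differences (9 members in 3 tested comparisons) was the same in 337 of 342 alternative values, and 5 reversed. Over the same 342 values 264 calls were the same, 31 were gained and 47 lost. Leaving out a library lacking EGF turned 4 of them: against the EGF-fed library labelled BRCA2 siRNA, the difference ran from -0.575 without library B to 0.041 without library A for GABARAPL1, from -0.669 to 0.154 for IRS2 and from -0.222 to 0.155 for CCNG2, and for IRS2 against the passage 6 controls from -0.540 to 0.283. With medians subtracted CCNG2 had 0.0195 against the EGF-fed library. Without EGF against the passage 6 controls, 950 calls became 76 with no filter, 46 with controls A and B averaged and 146 with controls of both passages as 1 group, and 42 to 8964 when 1 library was left out: 42 without control A, 45 without control B, 8964 without library A lacking EGF and 6975 without library B lacking EGF. Between the passage 6 and passage 4 controls, 2963 calls of limma became 0 with no filter (7341 at an unadjusted p below 0.05), 0 with the controls averaged (2770 unadjusted) and 0 to 9849 with 1 library left out, the 0 being without control A (2959 unadjusted) or control B (2674 unadjusted), 9835 without library A lacking EGF and 9849 without library B. Against the EGF-fed library labelled BRCA2 siRNA, 2406 calls became 0 with no filter (7066 unadjusted), 203 with the controls averaged and 203 to 9215 with 1 library left out, 203 without control A or B, 9215 without library A lacking EGF and 8869 without library B. Leaving out a library lacking EGF leaves only the passage 6 controls (SD of their differences 0.119) to give the spread. Without control A or B, or with them averaged, only the pair lacking EGF is left (0.308). Each of these fits has 1 residual degree of freedom, and leaving out a passage 4 library leaves 2. The cause of the changes in calls was not tested. A replicate block gave 1232 calls without EGF against the passage 6 controls, with CITED2, FBXO32, FOXO1, FOXO3 and SESN3 among them. Deviations of same-letter libraries correlated at -0.172, so a crossed replicate block was added after seeing the data, and it gave 1795 calls. Depth is unknown, which limits all low genes.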

Other observations

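Genes of the hypoxia-inducible factor arm, on which CITED2 feeds back, were all tested (13 of 13). Between the passage 6 and passage 4 controls 3 fell and 1 rose (limma), with a median of -0.12. Of all tested genes, 12.4% fell and 7.71% rose there. EPAS1, which encodes HIF-2 alpha, was at 11.89 and 12.05 without EGF and 12.44 in the EGF-fed library labelled BRCA2 siRNA, against 11.62 and 11.50 in the passage 6 controls and 12.70 in the passage 4 control (-1.14 ± 0.12 between the controls, adjusted p = 0.0231, limma). TFAP2A, which encodes a transcription factor that CITED2 coactivates, fell by 1.12, ARNT fell by 0.68 and CA9, a hypoxia-induced carbonic anhydrase, rose by 0.75. Without EGF against the passage 6 controls 1 gene fell and 0 rose. It was TFAP2C, at 7.33 and 7.31 without EGF and 7.84 in the EGF-fed library labelled BRCA2 siRNA, against 8.21 and 8.29 in the passage 6 controls and 8.24 in the passage 4 control (-0.93 ± 0.09, adjusted p = 0.0152, limma). TFAP2C was thus lowest without EGF, and stayed called with controls of both passages as 1 group.

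Genes of the glucose-sensing arm, which drives TXNIP, had 10 of 11 tested. Between the passage 6 and passage 4 controls 4 fell and 0 rose, with a median of -0.49 and all 10 below 0: the hexokinases HK1 (-0.62) and HK2 (-0.52), the glucose-responsive factor MLXIP (-0.58) and its partner MLX (-0.50). Without EGF against the passage 6 controls HK2 fell by 0.52 (adjusted p = 0.0285, limma) and 0 rose. Against the EGF-fed library labelled BRCA2 siRNA, cells without EGF had 4 that fell, with TXN (-0.71), the thioredoxin that TXNIP binds, among them, and 1 that rose, the glucose transporter SLC2A1 (0.69). With the passage 6 controls averaged none of the calls of either list held.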
